A study of Drosophila melanogaster with 7 samples.

Results

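The mitotic peaks of CP190 were compared with the mitotic peaks of BEAF on the main chromosome arms of Drosophila melanogaster (2L, 2R, 3L, 3R, 4 and X). The members are the 3759 CP190 peaks and the 2432 BEAF peaks called there, of 40204 peaks in the 7 lists of the series. A peak is called shared when it overlapped a peak of the other list by at least 1 bp, and otherwise private to its list. The material was Kc167, an established embryonic cell line. Cells were fixed with 1% formaldehyde, labelled for DNA with propidium iodide and for mitotic chromatin with an antibody to phosphorylated histone H3, and sorted into mitotic and interphase populations before chromatin immunoprecipitation sequencing (ChIP-seq). The mitotic CP190 and mitotic BEAF groups were 1 library each, both precipitated with antibodies raised in rabbit. The sorting antibody, which was detected with an anti-rabbit reagent, was applied to the cells before the precipitation. Because it labels mitotic chromatin, its amount on the chromatin may differ between mitotic and interphase libraries. The interphase lists of CP190, BEAF and dCTCF and the mitotic lists of dCTCF and Su(Hw) were also 1 Kc167 library each. They served to describe the shared and private peaks and to compare midpoint offsets. The interphase CP190 and BEAF lists also gave interphase pairs, whose mitotic calls were described.

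CP190 is a BTB-domain zinc-finger protein that most insulator complexes of the fly contain. It is brought to many of its sites by DNA-binding partners, among them BEAF, dCTCF and Su(Hw). BEAF, the boundary element-associated factor, binds clusters of the motif CGATA, often close to the promoters of housekeeping genes. During mitosis chromosomes condense, transcription largely stops and many DNA-binding proteins leave the chromatin, so the sites at which a DNA-binding protein and its cofactor are still found together are of interest.

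Each side of the comparison is a single library, so differences have no replicate check and no p-value was computed. The ranges in parentheses are 95% intervals that cover counting error only: Wilson intervals for shares, Newcombe intervals for differences of shares and order-statistic intervals for medians. The lists carry no read counts, so depth is unknown and a missing peak means no more than a site not called. The score of each peak is the authors' own. It ranks peaks within a list and is not compared between lists. Scores of 3100 are tied, at 19 CP190 peaks and 44 BEAF peaks. The highest CP190 score is 3100 and the highest BEAF score 3190.51, and why scores tie at 3100 is not known. Positions are 1-based and as in the files, whose sequence names are those of genome release 5. The gene table at hand is of release 6, so no gene, exon, intron or UTR was assigned to a peak.

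A minority of the mitotic peaks of either protein lay together. Of the CP190 peaks, 1057 were shared with BEAF (28.1%, 26.7 to 29.6%) and 2702 were private. Of the BEAF peaks, 1038 were shared with CP190 (42.7%, 40.7 to 44.7%) and 1394 were private. The CP190 peaks covered 2.06% of the main arms, taken up to the highest peak end on each arm, and the BEAF peaks covered 1.27%. By bases, 22.0% of the CP190 territory lay in BEAF peaks and 35.6% of the BEAF territory lay in CP190 peaks. The sharing was mostly one peak to one peak: among 1068 overlapping pairs, 989 involved a CP190 peak and a BEAF peak that met no other. Only 11 CP190 peaks overlapped 2 BEAF peaks, and 28 BEAF peaks overlapped 2 CP190 peaks. Merged, the shared peaks formed 1027 regions with a median width of 732 bp. The median gap between neighbouring shared regions on an arm was 59789 bp, and 149 of the 1021 gaps (14.6%) were at most 10 kb.

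Chromosome X carried the highest density of shared sites. It had 11.6 shared CP190 peaks per Mb, against 10.4 on 2R, 8.42 on 3R, 7.62 on 3L, 6.43 on 2L and 5.18 on chromosome 4. The share of CP190 peaks that overlapped BEAF was 34.8% (31.5 to 38.3%) on X and 26.4% (24.9 to 28.1%) on the other arms together, a difference of 8.40 percentage points (4.71 to 12.2). For BEAF the share with CP190 was 45.3% on X and 41.9% on the other arms, and the interval of that difference included 0 (3.40 points, -1.22 to 8.06). BEAF was itself denser on X, with 25.5 peaks per Mb against 17.0 to 22.3 on the other arms, while the CP190 density on X (33.4) lay below that on 2R (38.0).

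Where both proteins were called, their peaks were nearly concentric. The midpoints of overlapping mitotic CP190 and BEAF peaks lay a median of 71.5 bp apart (64.5 to 77.0), with quartiles at 31.0 and 168.5 bp. Of the 1068 pairs, 662 (62.0%) had midpoints within 100 bp and 1025 (96.0%) within 500 bp. BEAF lay to the right of CP190 in 521 pairs, so neither side was favoured on the reference strand. The overlap had a median length of 487 bp. In 375 pairs the CP190 peak lay within the BEAF peak, in 217 pairs the BEAF peak lay within the CP190 peak, and in 858 pairs (80.3%) the overlap covered at least 50% of both. The offset was larger for broader CP190 peaks. Its median was 47.5 bp where the CP190 peak was under 500 bp wide, 74.5 bp between 500 and 1000 bp and 259.75 bp between 1000 and 2000 bp. The files hold no summits, so a midpoint stands for the centre of binding.

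**Figure D1:**
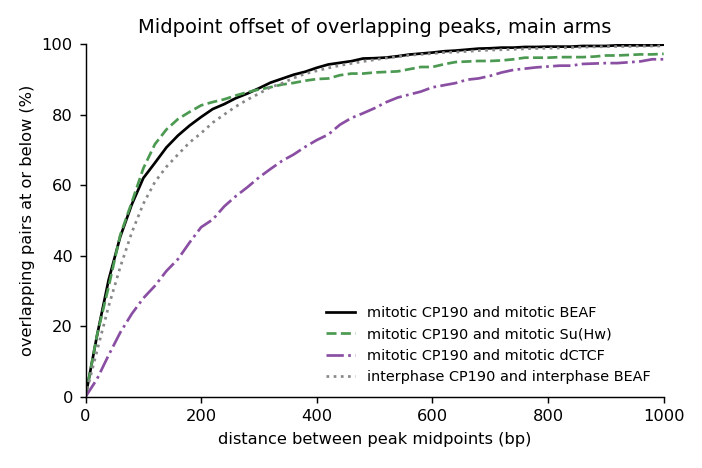
Cumulative share of overlapping pairs (y axis, %) by the distance between the midpoints of their peaks (x axis, bp) on the main arms, for mitotic CP190 with BEAF, with Su(Hw) and with dCTCF, and for interphase CP190 with BEAF. The lines for mitotic CP190 with BEAF and with Su(Hw) rise together, with medians of 71.5 and 69.5 bp, and the line for dCTCF rises later, with a median of 217.25 bp.

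The close alignment with mitotic BEAF resembled that with mitotic Su(Hw) and not that with mitotic dCTCF. Mitotic CP190 and dCTCF midpoints lay a median of 217.25 bp apart (189 to 237.5) in 830 pairs, and CP190 and Su(Hw) midpoints 69.5 bp (61.0 to 76.5) in 644 pairs. These pairs share the CP190 list. Mitotic dCTCF peaks had a median width of 896 bp, mitotic Su(Hw) peaks 842.5 bp and mitotic BEAF peaks 565 bp. Broad peaks have less certain centres, and how far width bears on these offsets was not tested. Among pairs in which both peaks were under 1000 bp wide, the median was 54.0 bp (48.5 to 59.0) for BEAF, 52.5 bp (47.0 to 59.0) for Su(Hw) and 176.5 bp (164.5 to 199) for dCTCF. Between phases, CP190 and BEAF midpoints in such pairs lay 54.0 bp apart in mitosis and 67.0 bp (64.5 to 70.5) in interphase. Widths under 1000 bp were not matched further.

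Few pairs sat at the edge of the overlap rule. Overlaps of at most 20 bp were seen in 3 pairs, and 8 private CP190 peaks had a BEAF peak within 20 bp of their end. The shortest overlap, 1 bp, was at X 11575459 to 11576275, where a CP190 peak with a score of 107.31 met a BEAF peak with a score of 66.97. The closest unshared neighbours were at 3R 1604450 to 1605436, with 1 bp between a CP190 peak (79.67) and a BEAF peak (1426.15). Most private peaks had no peak of the other protein within 1000 bp. The nearest BEAF peak to a private CP190 peak was a median of 20211 bp away, and 162 of the 2702 private CP190 peaks (5.16 to 6.95%) had one within 1000 bp. For private BEAF peaks the nearest CP190 peak was a median of 8390 bp away, and 10.4% had one within 1000 bp.

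The lists were unlike in how sharing related to score. Strong BEAF peaks were mostly shared, whereas about as large a share of CP190 peaks lay with BEAF in the middle of the CP190 ranking as at its top. From the lowest to the highest quintile of BEAF scores, 27.9% (24.1 to 32.1%), 27.8%, 32.2%, 51.2% and 74.3% (70.2 to 78.0%) of BEAF peaks overlapped CP190. From the lowest to the highest quintile of CP190 scores, 19.9% (17.2 to 23.0%), 26.6%, 29.3% (26.1 to 32.6%), 32.0% and 32.8% (29.5 to 36.2%) of CP190 peaks overlapped BEAF. At a score of 3100 or above, 45 of the 47 BEAF peaks (95.7%, 85.8 to 98.8%) and 8 of the 19 CP190 peaks (42.1%, 23.1 to 63.7%) were shared. Scores are not compared between lists, and 3100 only marks the upper end of each ranking.

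**Figure D2:**
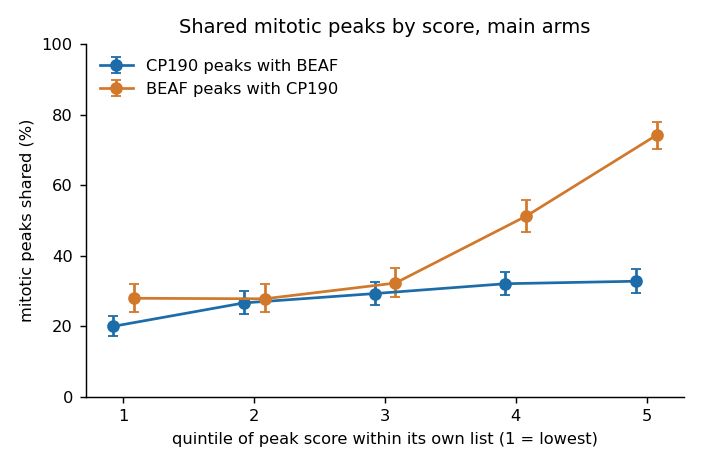
Share of mitotic CP190 peaks that overlap mitotic BEAF and of mitotic BEAF peaks that overlap mitotic CP190 (y axis, %), by quintile of the peak's score within its own list (x axis); bars are 95% Wilson intervals. The BEAF line climbs to 74.3% in the highest quintile and the CP190 line stays between 19.9 and 32.8%.

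Shared peaks stood higher in the ranking of both lists than private peaks. The median score percentile of shared CP190 peaks was 56.9 (quartiles 31.2 and 78.0), against 47.3 (22.8 and 73.4) for private CP190 peaks. For BEAF it was 67.4 (38.8 and 86.6) for shared peaks and 39.7 (19.9 and 61.0) for private peaks. A score above the median of the list was held by 57.2% of shared and 47.1% of private CP190 peaks, a difference of 10.1 points (6.58 to 13.6), and by 66.0% of shared and 38.1% of private BEAF peaks, a difference of 27.9 points (24.0 to 31.7). The CP190 difference was 1.58 points (-3.07 to 6.22) among peaks with a score of at least 100 in both lists, and 3.32 points (-0.971 to 7.59) with equal numbers of highest scoring peaks.

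By width, a width above the median of the list was also commoner among shared than private peaks, by 7.05 points (3.50 to 10.6) for CP190 and 21.5 points (17.5 to 25.4) for BEAF. The CP190 difference was 2.80 points (-1.49 to 7.07) with equal numbers of highest scoring peaks, an interval that includes 0. Shared CP190 peaks had a median width of 581 bp (quartiles 475 and 709) and private CP190 peaks 557 bp (470 and 684). Shared BEAF peaks had a median of 622.5 bp (503.25 and 820) and private BEAF peaks 524.5 bp (427.25 and 663.75). Score and width moved together across the sites of a list, with a Spearman rho of 0.69 over the 2432 BEAF peaks and 0.44 over the 3759 CP190 peaks, and wider peaks overlap others more readily. BEAF sharing also differed by score within tertiles of width. In the narrowest tertile (207 to 491 bp), 26.4% (22.8 to 30.3%) of the 530 BEAF peaks in the lowest tertile of scores were shared, as were 26 of 52 in the highest (36.9 to 63.1%). In the widest tertile these shares were 12 of 48 and 67.1% (63.1 to 70.9%) of 554. Widths were not matched within a tertile: in the widest they ran from 656 to 1739 bp at the lowest scores and from 656 to 3297 bp at the highest. For CP190 the corresponding shares were 24.1% (21.0 to 27.5%) and 27.9% (22.5 to 34.1%) among the narrowest peaks, and 16.9% (11.8 to 23.6%) and 36.8% (33.4 to 40.4%) among the widest.

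The broadest mitotic CP190 regions seldom had mitotic BEAF. Of the 53 mitotic CP190 peaks at least 2000 bp wide, 5 overlapped mitotic BEAF, against 28.1% of all mitotic CP190 peaks, although their width makes overlap easier. Interphase BEAF was at 18 of the 53, against 50.1% of all, interphase CP190 at 42, against 88.2%, and interphase dCTCF at 7, against 34.1%. Mitotic Su(Hw) was at 49 of them, against 17.0% of all, and mitotic dCTCF at 35, against 21.8%. The width of these regions makes overlap with Su(Hw) and dCTCF easier too, and no CP190 peaks of like width were set beside them.

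Within shared pairs the strengths of both proteins were almost unrelated. Over the 989 one-to-one pairs the score percentiles of CP190 and BEAF had a Spearman rho of 0.07 and a Pearson r of 0.02, a description across sites of 1 library each. The widths had a Spearman rho of 0.24. The BEAF partners of the 230 paired CP190 peaks in the highest CP190 quintile fell at both ends of the BEAF ranking, with 91 in the highest BEAF quintile and 80 in the lowest 2. Of the 137 paired CP190 peaks in the lowest quintile, 34 had a BEAF partner in the highest quintile. Taken from BEAF, 91 of 340 paired peaks in the highest BEAF quintile and 39 of 129 in the lowest had a CP190 partner in the highest CP190 quintile (26.8%, 22.3 to 31.7%, and 30.2%, 23.0 to 38.6%).

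**Figure D3:**
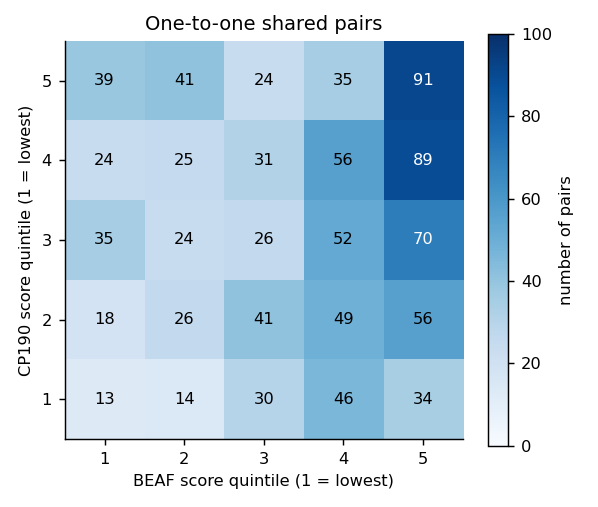
Number of one-to-one shared pairs (colour and digits) by the quintile of the CP190 score in the CP190 list (y axis) and of the BEAF score in the BEAF list (x axis). The column of the highest BEAF quintile is the fullest, with 91 pairs at its top, and the row of the highest CP190 quintile holds pairs in every BEAF quintile, with 39 in the lowest.

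The sites that ranked highest in both lists had interphase scores above the main-arm medians of both interphase lists. The 8 one-to-one pairs with the lowest sum of ranks all had interphase CP190 and interphase BEAF peaks, as 98.3% and 99.0% of all shared CP190 peaks did. Interphase dCTCF was at 7 of the 8, with scores from 91.75 to 3100, and mitotic dCTCF at 5. Among shared CP190 peaks in the highest CP190 score quintile these shares were 67.5% and 34.1%, and among all shared CP190 peaks 42.8% and 31.8%. On X lay 6 of the 8, and 261 of all 1057 shared CP190 peaks. At X 5631659 to 5632505, mitotic CP190 had a score of 2620.64 and mitotic BEAF 3100, with midpoints 89.0 bp apart. Both interphase peaks there were at 3100, no dCTCF peak was called in either phase, and Su(Hw) was called in mitosis with 238.7. At X 15032817 to 15034160 the mitotic scores were 2422.78 for CP190 and 3100 for BEAF, and dCTCF was called in mitosis (582.23) and in interphase (2347.6). The site at 2R 18693792 to 18694927 had midpoints 1 bp apart, with mitotic scores of 2158.96 for CP190 and 2203.89 for BEAF. The shared site at 3R 25871443 to 25872447 paired a mitotic BEAF score of 3100 with a mitotic CP190 score of 1031.6 that ranked 168 in its list.

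Most of the strongest CP190 peaks without BEAF in mitosis named here also had strong interphase dCTCF. Since more than 8 private CP190 peaks are tied at 3100, the 8 taken are the first of them in genome order. All 8 had interphase CP190 and an interphase BEAF peak, and all 8 had interphase dCTCF, which was at 3100 in 7 of them. Mitotic dCTCF was called at 7 and Su(Hw) at 3. Among all private CP190 peaks in the highest score quintile, 61.2% had interphase dCTCF and 30.1% mitotic dCTCF. In the same group 34.5% had Su(Hw), 45.7% interphase BEAF and 99.8% interphase CP190. Shared CP190 peaks in the highest quintile had dCTCF about as often, at 67.5% in interphase and 34.1% in mitosis, so dCTCF was not particular to private peaks. The interphase BEAF peak was under 338.44, the main-arm median of its list, at all but 2 of the 8 named peaks. At 3L 505610 to 506429 the mitotic CP190 score was 3100 and the mitotic dCTCF score 1536.15, while BEAF had an interphase score of 90.45 and its nearest mitotic peak was 33909 bp away. At 3R 10130374 to 10134077, a region 3704 bp wide, CP190 and Su(Hw) were both at 3100 in mitosis, dCTCF had 115.61 in interphase and no mitotic peak, and BEAF had 138.19 in interphase. The exceptions with strong interphase BEAF were 3R 12086066 to 12087033 (1047.23) and 2R 2038494 to 2039104 (911.29).

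The 8 strongest BEAF peaks without CP190 in mitosis had interphase CP190 scores of at most 445.94. All 8 had an interphase BEAF score of 3100, and 7 had an interphase CP190 peak. Interphase CP190 was at 75.8% of all private BEAF peaks and at 86.4% of those in the highest BEAF score quintile. Of those 7 scores, 5 were between 59.79 and 219.82, and those at X 17596755 to 17597871 (350.69) and X 13053261 to 13054218 (445.94) were above 291.9, the main-arm median of the interphase CP190 list. At 3R 1485384 to 1486713 mitotic BEAF was at 3100 and interphase CP190 at 219.82, and the nearest mitotic CP190 peak lay 10762 bp away. At 3R 21308103 to 21309145 mitotic BEAF had a score of 2805.51, and CP190 was called in neither phase. None of the 8 had a Su(Hw) peak, against 1.22% of all private BEAF peaks, and 3 had mitotic dCTCF, against 28.8%. Among private BEAF peaks in the highest BEAF score quintile, 1.60% had Su(Hw) and 36.8% mitotic dCTCF.

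Interphase BEAF lay at 99.0% (98.1 to 99.4%) of shared CP190 peaks, against 31.0% (29.3 to 32.8%) of private CP190 peaks and 50.1% of all mitotic CP190 peaks. The value at shared peaks is no separate result, since a shared peak overlaps mitotic BEAF by definition and 99.1% of all mitotic BEAF peaks overlapped interphase BEAF. The 838 private CP190 peaks that met an interphase BEAF peak met weaker ones, with a median score percentile of 31.2 (quartiles 16.9 and 46.4), against 85.2 (73.3 and 96.1) under shared CP190 peaks. The share of mitotic CP190 peaks with mitotic BEAF was 1.58%, 3.58%, 22.8%, 88.4% and 98.1% from the lowest to the highest quintile of the interphase BEAF score beneath them, and 0.587% for the 1875 CP190 peaks with no interphase BEAF. This rise sets the interphase score of BEAF against the mitotic call of BEAF. The matching shares for all interphase BEAF peaks are not given, so nothing particular to CP190 sites follows from it.

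Sharing of BEAF peaks likewise rose with the interphase CP190 score, which again sets interphase and mitotic peaks of the same protein side by side. Interphase CP190 was present at 98.4% (97.4 to 99.0%) of shared and 75.8% (73.5 to 78.0%) of private BEAF peaks, and at 85.4% of all mitotic BEAF peaks. The median percentile of that interphase CP190 peak was 78.1 (60.8 and 90.9) under shared and 48.2 (29.2 and 65.9) under private BEAF peaks. The share of mitotic BEAF peaks with mitotic CP190 was 4.80% (3.02 to 7.56%) where CP190 had no interphase peak. It was 12.0%, 21.2%, 35.0%, 52.9% and 84.7% (81.5 to 87.4%) from the lowest to the highest quintile of the interphase CP190 score. By comparison, 88.2% of all mitotic CP190 peaks overlapped interphase CP190, with 98.3% of shared and 84.3% of private ones, and interphase BEAF lay at 99.2% of shared and 99.1% of private BEAF peaks.

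**Figure D4:**
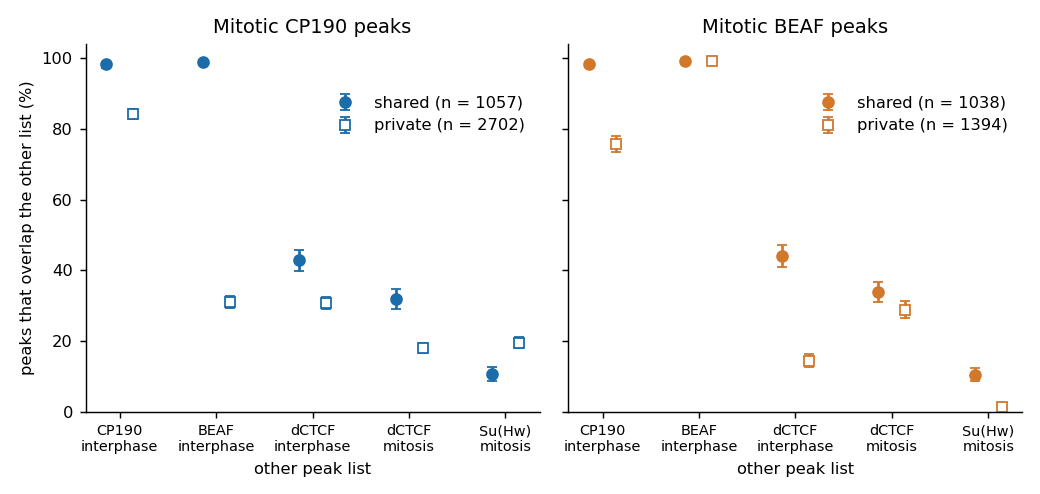
Share of shared (filled circles) and private (open squares) mitotic peaks that overlap each of 5 other lists (y axis, %), for CP190 peaks on the left and BEAF peaks on the right; bars are 95% Wilson intervals, some smaller than the symbols. Interphase BEAF is at 99.0% of shared and 31.0% of private CP190 peaks, and Su(Hw) is at 10.5% of shared and 19.5% of private CP190 peaks but at 10.3% of shared and 1.22% of private BEAF peaks.

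Interphase dCTCF, the fly homolog of CTCF, was commoner at shared BEAF peaks. It was called at 44.0% (41.0 to 47.1%) of shared and 14.3% (12.5 to 16.2%) of private BEAF peaks, 27.0% of all. Put the other way, 69.7% (66.0 to 73.1%) of mitotic BEAF peaks with interphase dCTCF had mitotic CP190, and 32.7% (30.6 to 34.9%) of those without it. Interphase CP190 scores differed between these groups, so the shares were also taken within quintiles of the interphase CP190 score. In the highest quintile they were 90.1% (86.5 to 92.8%) of 344 peaks with dCTCF and 76.0% (69.9 to 81.2%) of 217 without. In the fourth they were 62.0% (54.5 to 69.1%) and 49.1% (44.2 to 54.0%), and in the third 37.2% (27.3 to 48.3%) and 34.5% (29.8 to 39.5%), where the intervals overlapped. In the second quintile and below, with 9 of 32 and 4 of 16 peaks with dCTCF shared, they overlapped too. Among CP190 peaks the contrast was smaller, with interphase dCTCF at 42.8% (39.8 to 45.8%) of shared and 30.7% (29.0 to 32.4%) of private ones, 34.1% of all.

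For mitotic dCTCF the differences depended on the setting. It overlapped 31.8% (29.1 to 34.7%) of shared and 17.9% (16.5 to 19.4%) of private CP190 peaks, 21.8% of all, a difference of 13.9 points (10.8 to 17.1) that was 3.45 points with a reciprocal overlap of 50% and -0.291 points (-3.34 to 2.82) over all sequences of the files. For BEAF the shares were 33.8% of shared and 28.8% of private peaks, 31.0% of all. That difference of 4.98 points (1.26 to 8.72) turned to -7.15 points over all sequences of the files, and within each quintile of BEAF scores its interval included 0.

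Su(Hw), the zinc-finger protein of the gypsy insulator, had opposite relations to sharing in the lists. Among CP190 peaks it was called at 10.5% (8.79 to 12.5%) of shared and 19.5% (18.1 to 21.1%) of private ones, 17.0% of all. Among BEAF peaks it was called at 10.3% (8.60 to 12.3%) of shared and 1.22% (0.763 to 1.94%) of private ones, 5.10% of all. Of the 124 mitotic BEAF peaks with Su(Hw), 107 also had CP190 (86.3%, 79.1 to 91.3%), against 40.3% (38.4 to 42.4%) of the 2308 without it. The BEAF peaks with Su(Hw) were wider, with a median of 639 bp against 560 bp. Among CP190 peaks with Su(Hw), the median width was 797 bp for shared and 659.5 bp for private ones. Private BEAF peaks lack mitotic CP190 by definition, and how often Su(Hw) peaks meet CP190 away from BEAF was not set beside these shares. The excess of Su(Hw) at shared BEAF peaks was seen in every BEAF score quintile, from 12.5 points (7.36 to 19.4) in the lowest to 6.43 points (1.74 to 9.90) in the highest.

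The commonest make-up of a shared CP190 peak was interphase CP190 and interphase BEAF with no dCTCF in either phase and no Su(Hw), which 406 of the 1057 had (38.4%). A further 221 (20.9%) added interphase dCTCF, 169 (16.0%) dCTCF in both phases and 128 (12.1%) mitotic dCTCF alone. Private CP190 peaks were led by 785 (29.1%) with interphase CP190 and no other list, and 272 (10.1%) were in none of the other lists. Private BEAF peaks were led by 641 (46.0%) with interphase CP190 and BEAF, while 241 (17.3%) had interphase BEAF alone.

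A start from interphase pairs gives a set of sites that coincides only in part with the shared mitotic peaks. On the main arms, 3586 interphase CP190 peaks met a single interphase BEAF peak that met no other. In mitosis 854 of these pairs had both proteins (23.8%, 22.4 to 25.2%), 721 CP190 only (20.1%, 18.8 to 21.4%), 927 BEAF only (25.9%, 24.4 to 27.3%) and 1084 neither (30.2%, 28.7 to 31.8%). Altogether 43.9% had a mitotic CP190 peak and 49.7% a mitotic BEAF peak, and in 839 pairs (23.4%) the mitotic peaks overlapped each other. Pairs with CP190 only in mitosis had weak interphase BEAF (median percentile 30.4) and strong interphase CP190 (86.0). Pairs with BEAF only had strong interphase BEAF (77.0) and middling CP190 (46.6). Pairs with both were high in both lists, at 78.5 for CP190 and 83.8 for BEAF. These percentiles set interphase scores beside mitotic calls of the same protein.

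**Figure D5:**
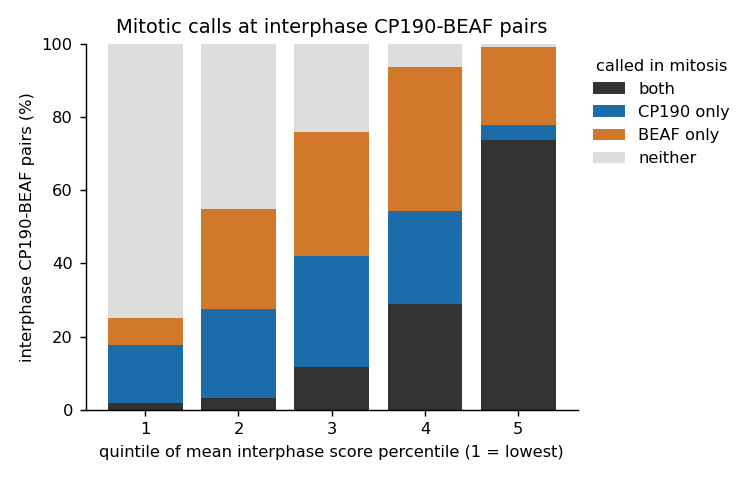
Share of the interphase CP190-BEAF pairs (y axis, %) called in mitosis for both proteins, CP190 only, BEAF only or neither, by quintile of the mean of their interphase score percentiles (x axis). Pairs with both make up 1.81% in the lowest quintile and 73.6% in the highest, and pairs with 1 protein are commonest in the middle quintiles.

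Pairs in which 1 protein was strong and the other weak in interphase mostly had the strong one alone in mitosis. This again sets the interphase score of each protein against its own mitotic call. The matching shares for all interphase peaks are not given, so nothing particular to pairs follows from it. Where interphase CP190 was in its highest quintile and interphase BEAF in its lowest 2, 281 of 350 pairs (80.3%, 75.8 to 84.1%) had CP190 only, and 8 had both. Where BEAF was in its highest quintile and CP190 in its lowest 2, 142 of 181 (78.5%, 71.9 to 83.8%) had BEAF only and 39 had both. CP190 alone was seen at 0 of these 181, which allows a share of up to 1.66%, taking 3 counts as the limit of a count of 0 in place of the Wilson bound of 2.08%. Where both were in their highest quintile, 243 of 268 pairs (90.7%, 86.6 to 93.6%) had both and 25 had BEAF only, while CP190 alone was seen at 0, which allows up to 1.12% by the limit of 3 counts, with a Wilson bound of 1.41%.

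At these pairs the mitotic call of CP190 went weakly with that of BEAF. A mitotic CP190 peak was present at 48.0% (45.6 to 50.3%) of the pairs with mitotic BEAF and at 39.9% (37.7 to 42.2%) of those without, a difference of 8.01 points (4.76 to 11.2). From the lowest to the highest quintile of the interphase CP190 score the difference was -2.37, 5.30, 13.9, 15.9 and 5.05 points. Its interval included 0 in the lowest 2 quintiles (-8.93 to 4.53 and -0.718 to 11.4) and not in the upper ones, where it was largest in the fourth, with CP190 at 51.9% of pairs with mitotic BEAF and 35.9% of those without. In the highest quintile CP190 was called at 88.1% (84.8 to 90.8%) with mitotic BEAF and 83.1% (79.6 to 86.0%) without it. Score quintiles are broad, and scores of CP190 and BEAF within a quintile were not matched further.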

How the data were processed

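Per the labels' protocols, chromatin of sorted, fixed Kc167 cells was sonicated to 200 to 1000 bp and precipitated, and a gel cut kept fragments of 200 to 300 bp. The submitters' processing notes name Bowtie 0.12.5 for alignment. The authors deposited 1 peak list per library, with a score per peak that has a floor of 50. Peak names begin with MACS. The meaning of the score, the caller's threshold and version, any control library and the genome build were not given in the sources used here. Scores vary with depth, and longer lists overlap more by length alone.

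Groups came from the sample titles. Overlaps, midpoints, widths and within-list score ranks (ties at their mean) were computed in Python 3.11.15 (SciPy 1.17.1, NumPy 2.4.6), and matplotlib 3.10.9 drew the figures. A count with bedtools 2.31.1 gave equal numbers for 84 of 84 combinations of lists and overlap rules. Tested on a simulated copy of the 3759 CP190 peaks, 1119 of 1119 shifted peaks were found, where the small shifts fixed their overlap in advance. Named sites are the 8 shared one-to-one pairs with the lowest rank sum, the 8 highest scoring private peaks of each list, and the 4 shortest overlaps and 4 closest unshared neighbours, with examples given. Alternatives were a reciprocal overlap of 50%, 400 bp around midpoints, scores of at least 100, equal numbers of highest scoring peaks, all sequences, and peaks under 2000 bp. The members, lists and rules were chosen with earlier results of these data known. No chance level was simulated, and no genome sequence was used.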

Additional observations from a re-analysis of the deposited data

Results flagged for a closer look

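Outside the main arms, in sequences the comparison leaves out, some mitotic CP190 and BEAF peaks also overlapped. The limits given are the shares that a count of 0 allows (3 counts); a share above its limit says only that more than 3 overlaps were seen, and nothing on overlap beyond what peak numbers alone would give. On Uextra, the sequence not placed on any chromosome, 122 of 1617 CP190 peaks were shared (7.54%, limit 0.186%) and 122 of 812 BEAF peaks (15.0%, limit 0.369%). On U the shares were 4.79% of 167 CP190 peaks and 21.6% of 37 BEAF peaks, with limits of 1.80% and 8.11%. On the mapped heterochromatin sequences they were 15.4% of 65 CP190 peaks and 22.7% of 44 BEAF peaks, with limits of 4.62% and 6.82%. These sequences are outside the comparison on the main arms, and each share has 1 library behind each protein.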

How the results depend on the processing

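Of 78 values recomputed under 6 alternatives, 44 stayed within the interval of the value reported, 32 moved beyond it with the same direction and 2 turned. The share of CP190 peaks with BEAF was 22.8% with a reciprocal overlap of 50%, 26.4% with 400 bp around midpoints, 31.2% with equal numbers of highest scoring peaks and 21.3% over all sequences. The share of BEAF peaks with CP190 was 35.3, 40.4, 31.0 and 35.4% under the same settings, and 30.6% with scores of at least 100, where the CP190 list is shorter. The median midpoint offset was 53.25 bp with the reciprocal overlap and 63.5 bp with 400 bp around midpoints, both of which leave out distant pairs by construction. The excess of shared over private CP190 peaks above the median score was 1.58 points with scores of at least 100, 3.32 with equal numbers and 16.6 over all sequences. With equal numbers the excess above the median width of CP190 was 2.80 points and that above the median score of BEAF 22.5 points, and with the reciprocal overlap that above the median width of BEAF was 17.2 points. The excess of interphase BEAF at shared over private CP190 peaks was 63.9 points with the reciprocal overlap, 61.5 with scores of at least 100 and 64.3 with equal numbers. The excess of interphase CP190 at shared over private BEAF peaks was 18.7, 16.0 and 19.9 points under these settings and 39.8 over all sequences. The 2 that turned were the differences for mitotic dCTCF over all sequences, -0.291 points at CP190 peaks and -7.15 points at BEAF peaks, and the cause was not tested. With peaks under 2000 bp all 13 results stayed within their intervals. No paired analysis was possible because each group is a single library, and for the same reason no replicate could be left out. Unknown depth limits every statement on sites without a peak.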
